A study of Mus musculus with 10 samples.

Results

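The vomeronasal type 1 receptors are a family of odor receptors that the mouse uses to sense pheromones. The 211 genes described here were all those whose symbol begins with Vmn1r, of 24500 genes counted. ChIP-seq of the histone mark H3K27me3 and of EZH2 had been carried out in E14 cells, a mouse embryonic stem (ES) cell line with the strain label 12910la. The control cells were wild-type, and the ex14D cells carried a CRISPR-Cas9 in/del mutation in exon 14 of Ezh2, which the labels call a knock out of exon 14. The titles of the ex14D libraries read Ezh2KO, a name that the authors also use for separate Ezh2 knockout cells. In ex14D cells the EZH2 isoform that skips exon 14 was the only functional one. Each genotype had 2 H3K27me3 libraries, 2 EZH2 libraries and 1 input library, 10 libraries in all. Whether the ex14D libraries came from 1 clone or several is not given in the labels. The comparisons asked whether these receptor genes carried H3K27me3 above input, and whether H3K27me3 or EZH2 on them differed between the genotypes.

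Vmn1r proteins are G-protein coupled receptors of the apical sensory neurons of the vomeronasal organ. They signal through the G protein subunit Gnai2 and the channel Trpc2. The genes stand in tandem clusters that arose by repeated duplication, and most have their whole coding sequence in 1 exon. PRC2, the complex whose catalytic subunit is EZH2, places H3K27me3 and in ES cells is best known on the CG-rich promoters of developmental genes such as the Hox clusters. Vomeronasal receptors are not known to be used in ES cells. RNA was not measured in the files used here, so the silence of these genes could not be checked.

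Of the 211 genes, 209 were placed on chromosomes of GRCm38 with the RefSeq annotation. Chromosome 7 held 104 of them, chromosome 6 held 51, chromosome 13 held 36 and chromosome 17 held 14. Genes less than 1 Mb from the next were taken as 1 locus, which gave 13 loci. The genes were short, with a median length of 924 bp and a range of 870 to 16016 bp, and 199 had 1 annotated exon. Vmn1r186 and Vmn1r187 were on no placed chromosome.

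RefSeq promoters (GRCm38.p6, 250 bases before to 50 bases after the start of the gene, in the direction of transcription) were found for 185 of the genes. The following show the range of the family, with CG dinucleotides in capitals. Vmn1r29 (chr6:58307047-58307346, plus strand) had the lowest H3K27me3 count relative to input of any family member tested. Vmn1r235 (chr17:21260177-21260476, plus strand) had the most input reads. Vmn1r54 (chr6:90268856-90269155, plus strand) had the most CG dinucleotides of the family. Vmn1r111 (chr7:20703167-20703466, minus strand) shares its promoter letter for letter with 4 other genes. Hoxd9 (chr2:74697513-74697812, plus strand), a homeobox gene of trunk and limb patterning, is shown as a contrasting PRC2 target and was chosen after its values were seen.
Vmn1r29: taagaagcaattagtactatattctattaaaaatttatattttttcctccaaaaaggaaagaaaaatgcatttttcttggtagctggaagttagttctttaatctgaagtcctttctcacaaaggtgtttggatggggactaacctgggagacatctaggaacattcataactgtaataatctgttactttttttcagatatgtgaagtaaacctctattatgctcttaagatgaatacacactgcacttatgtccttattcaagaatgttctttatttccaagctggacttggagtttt
Vmn1r235: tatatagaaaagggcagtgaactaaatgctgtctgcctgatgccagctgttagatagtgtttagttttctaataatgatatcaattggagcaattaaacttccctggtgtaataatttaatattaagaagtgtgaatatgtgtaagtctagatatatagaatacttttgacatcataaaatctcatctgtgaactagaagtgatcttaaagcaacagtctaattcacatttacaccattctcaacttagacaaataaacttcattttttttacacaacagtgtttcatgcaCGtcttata
Vmn1r54: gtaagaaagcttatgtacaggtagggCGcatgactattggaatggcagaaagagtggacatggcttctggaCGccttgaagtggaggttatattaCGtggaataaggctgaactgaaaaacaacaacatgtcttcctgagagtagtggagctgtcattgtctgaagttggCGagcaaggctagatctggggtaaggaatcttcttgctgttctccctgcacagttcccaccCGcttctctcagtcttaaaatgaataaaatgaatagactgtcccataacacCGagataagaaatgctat
Vmn1r111: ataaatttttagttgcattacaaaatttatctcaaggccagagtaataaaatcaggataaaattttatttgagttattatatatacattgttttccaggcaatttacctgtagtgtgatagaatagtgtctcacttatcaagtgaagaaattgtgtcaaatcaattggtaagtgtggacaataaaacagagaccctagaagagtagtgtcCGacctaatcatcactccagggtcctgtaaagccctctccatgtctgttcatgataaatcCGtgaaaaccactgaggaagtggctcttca
Hoxd9: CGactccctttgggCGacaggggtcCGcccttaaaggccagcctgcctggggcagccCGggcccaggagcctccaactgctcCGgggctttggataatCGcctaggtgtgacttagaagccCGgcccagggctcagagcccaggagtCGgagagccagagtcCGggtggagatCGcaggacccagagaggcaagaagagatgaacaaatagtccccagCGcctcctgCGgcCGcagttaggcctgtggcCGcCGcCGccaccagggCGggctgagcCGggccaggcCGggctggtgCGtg

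Vmn1r promoters were poor in CG. Their median was 1 CG per 300 bases, with a range of 0 to 6, and 44 promoters (23.8%) had none. The promoters of all counted genes had a median of 13, and 4.71% had none. The ratio of observed to expected CG had a median of 0.139 in the family and 0.575 over all promoters, and 0 of 185 Vmn1r promoters reached 0.6, against 48.3% of all promoters. The median GC content was 36% in the family and 56.3% over all promoters. Odorant receptors (Olfr) lay close to the family, with a median of 1 CG, a ratio of 0.106 and a GC content of 35.0%. The 24 Hox promoters had a median of 13.5 CG and a ratio of 0.594. The letters TATAAA, on either strand, occurred in 44.3% of Vmn1r promoters, 41.3% of Olfr promoters and 13.1% of all promoters of this length.

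**Figure D1:**
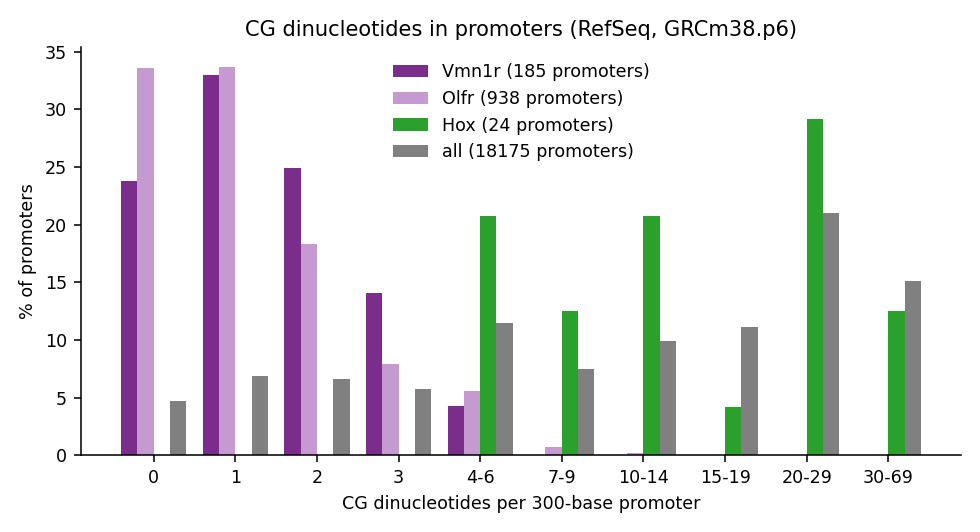
Number of CG dinucleotides in each 300-base promoter (x axis, in classes) against the share of promoters in percent (y axis) for the Vmn1r, Olfr and Hox lists and for all counted genes with a promoter sequence. All 185 Vmn1r promoters hold 6 or fewer, whereas the Hox promoters hold 4 or more.

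Depth on genes was lowest for input (409371 and 416778 reads), followed by H3K27me3 (594289 to 1450937 reads) and EZH2 (13628137 to 18403892 reads). All counted reads, including those on no gene, came to 10525739 to 21723106 for input and H3K27me3 and 30958131 to 41593153 for EZH2. The genotype could not be checked from reads on Ezh2. The ES cell label could only be set beside the mark itself. Of 6 ES cell genes, Pou5f1, Nanog and Zfp42 were lower in H3K27me3 than in input, Klf4 was higher, and Sox2 and Esrrb did not pass the test. The Hox genes had H3K27me3 above input in 42 of 42 cases, so the H3K27me3 libraries held strong enrichment elsewhere.

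A large block of the family gave no reads in any library. The Vmn1r91 to Vmn1r183 locus on chromosome 7 (20101158 to 24055691) held 66 genes, of which 36 had 0 reads in all 10 libraries, input included. These were the same 36 genes that had 0 reads in every library of the whole family. A count of 0 allows up to 3 reads, which is 7.33 CPM (counts per 1000000 reads on genes) in the control input and 7.20 CPM in the ex14D input. The absence of reads on these genes therefore says nothing about H3K27me3 or EZH2.

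Input reads followed how much of the sequence is unique. For each gene the share of 36-base words that occur at 1 place in GRCm38 was computed over 2 kb around the start. In the Vmn1r91 to Vmn1r183 locus the median share was 4.25%, compared with 80.8% in the Vmn1r4 to Vmn1r31 locus on chromosome 6 and 100% in the Vmn1r224 to Vmn1r237 locus on chromosome 17. Of 41 genes with a share under 10%, 35 had 0 reads in both inputs. The 56 genes with at least 90% had 26 to 50 reads over both inputs, with a median of 40.0. Over the 209 placed genes the share and the input reads had a Pearson r of 0.899 and a Spearman rho of 0.814. This is a description across genes, which share both libraries and many near-identical sequences. The group of Vmn1r111, Vmn1r118, Vmn1r131, Vmn1r138 and Vmn1r166, whose promoter is printed above, had 0 reads in every library. In all, 13 groups of identical promoters held 32 genes. Vmn1r62 and Vmn1r63 had no 36-base word found at 1 place and yet had 13 and 32 input reads, and the cause was not tested.

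**Figure D2:**
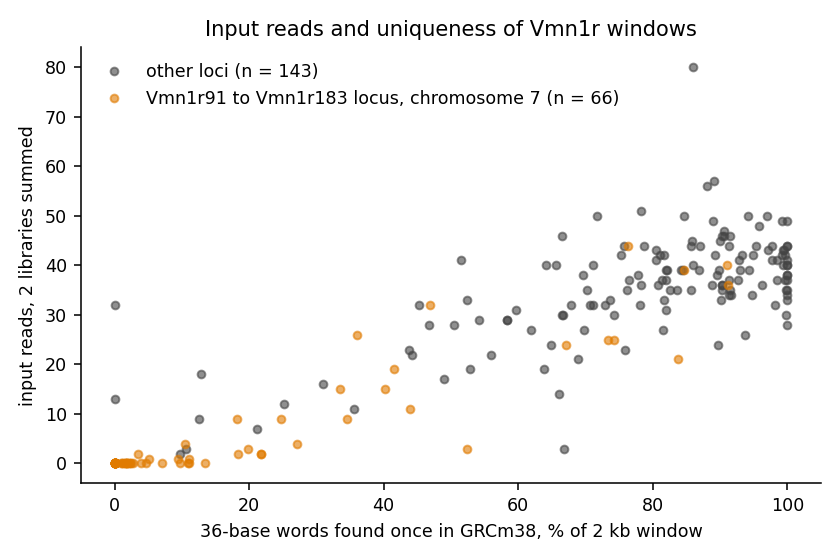
Share of 36-base words found at 1 place in GRCm38, in percent of the 2 kb window (x axis), against reads summed over both inputs (y axis). Each point is 1 of 209 Vmn1r genes. The 66 genes of the Vmn1r91 to Vmn1r183 locus mostly sit near 0 on both axes.

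A few genes departed from this relation. Among 137 genes with a share of at least 50%, the median over both inputs was 38.0 reads. Vmn1r188 and Vmn1r170 had 3 reads each and Vmn1r20 had 14. Vmn1r235 had 80. The low and high values of these genes were also seen in the ChIP libraries, which did not hold for every gene of unusual input. Vmn1r188 had 0 reads in each H3K27me3 and EZH2 library. Relative to the medians of the same 137 genes, Vmn1r20 had 0.486 of the H3K27me3 reads and 0.255 of the EZH2 reads per kb. Vmn1r10, with 0.5 of the median input, had 0.243 and 0.325. Vmn1r45, also with 0.5 of the median input, had 0.811 and 0.862. Vmn1r29 had 1.5 times the median input but 0.73 and 1.22. E14 cells derive from another mouse strain than the reference genome, and the part of strain differences in these values was not tested.

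**Figure D3:**
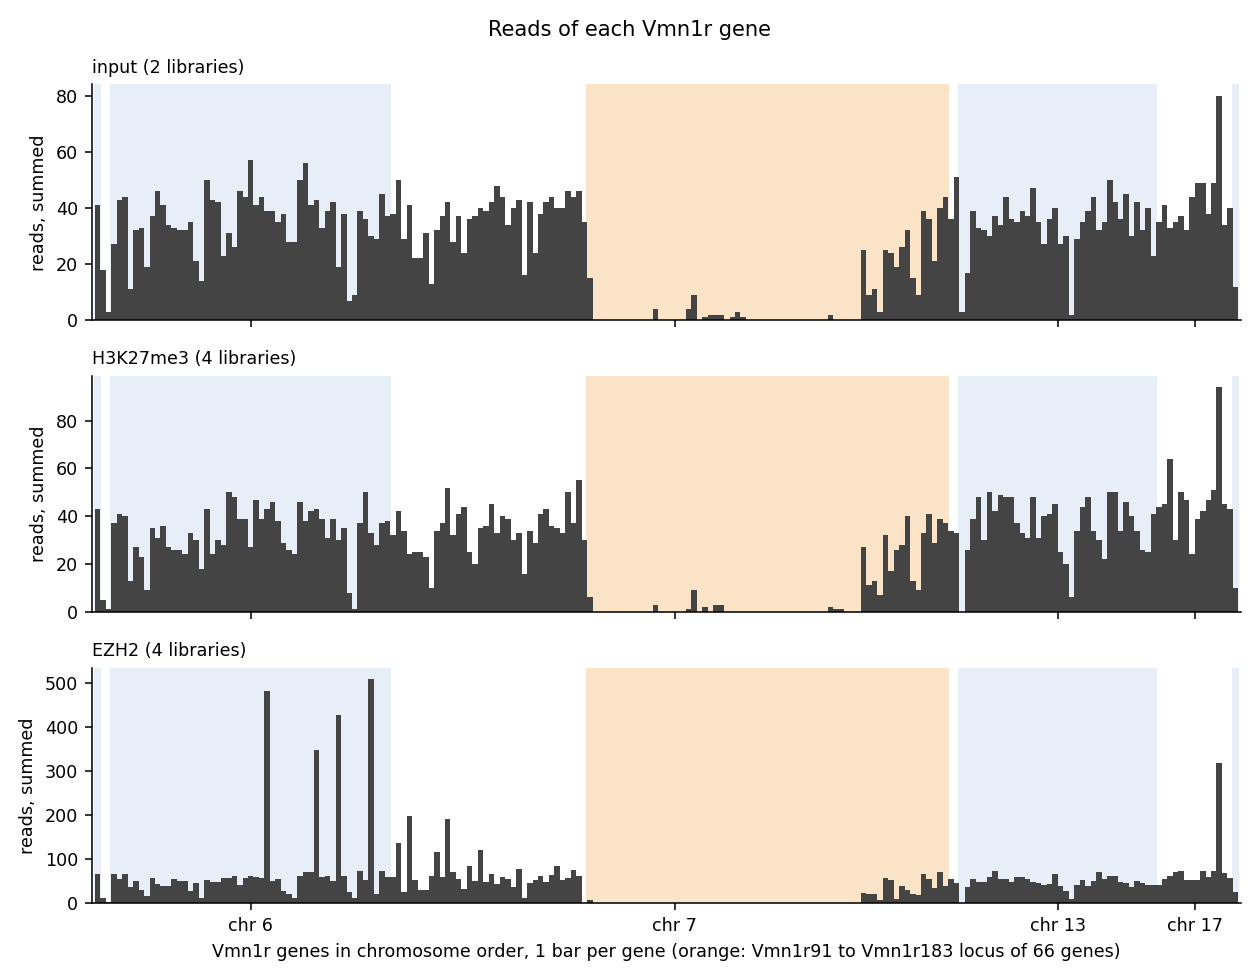
Reads of each of 209 Vmn1r genes in chromosome order (x axis, 1 bar per gene), summed over 2 input libraries, 4 H3K27me3 libraries and 4 EZH2 libraries (y axes). Shading separates chromosomes, and orange marks the Vmn1r91 to Vmn1r183 locus, where most bars are at 0 in all panels. The tallest EZH2 bars on chromosome 6 include Vmn1r32 (7526 bp) and Vmn1r51 (8003 bp), since EZH2 reads were counted over the gene.

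H3K27me3 on the family was below input in every library. Pooled over the 211 genes, the inputs held 2745 and 2777 reads, which is 127.3 and 127.8 RPM (reads per 1000000 of all counted reads). The control H3K27me3 libraries held 937 and 1382 reads, or 89.02 (exact 95% Poisson interval 83.41 to 94.91) and 88.12 (83.53 to 92.89) RPM. The ex14D H3K27me3 libraries held 1432 and 1702 reads, or 74.77 (70.95 to 78.75) and 93.6 (89.2 to 98.15) RPM. Each of these 4 values was below both inputs, beyond counting error. The control values lay between the ex14D values, so the genotypes overlapped. The intervals cover counting error only.

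The size of the deficit depended on the total used. Relative to all counted reads, the ratio of H3K27me3 to the input of the same genotype was 0.699 and 0.692 in control and 0.585 and 0.732 in ex14D. With CPM over reads on genes, the pooled log2 ratio was -2.14 ± 0.069 (SD, n = 2) in control and -2.52 ± 0.33 (SD, n = 2) in ex14D. In the inputs 97.9% to 98.0% of reads lay on no gene, and in H3K27me3 92.0% to 94.0% did, so the share of an unmarked gene among gene reads is smaller in H3K27me3 libraries. On the scale of all counted reads the median gene with at least 5 reads in each input had ratios of 0.980 and 0.982 in control and 0.867 and 0.860 in ex14D. The median Vmn1r gene had 0.683 and 0.688 in control and 0.546 and 0.689 in ex14D.

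The pooled ratios of other sensory receptor families were also below 1. Vmn2r, the other vomeronasal family, had 0.714 and 0.623 in control and 0.624 and 0.698 in ex14D. Olfr genes had 0.767 and 0.771 in control and 0.676 and 0.742 in ex14D. The taste receptors (Tas2r) had 0.879 and 0.878 in control and 0.662 and 0.763 in ex14D. Ribosomal protein genes, which ES cells transcribe strongly, had 0.444 and 0.334 in control and 0.602 and 0.627 in ex14D. The Hox genes had 30.4 and 28.7 in control and 79.2 and 89.6 in ex14D. All these ratios compare shares of a library, so the total H3K27me3 of the cells cannot be read from them. Differences between the lists were not tested.

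**Figure D4:**
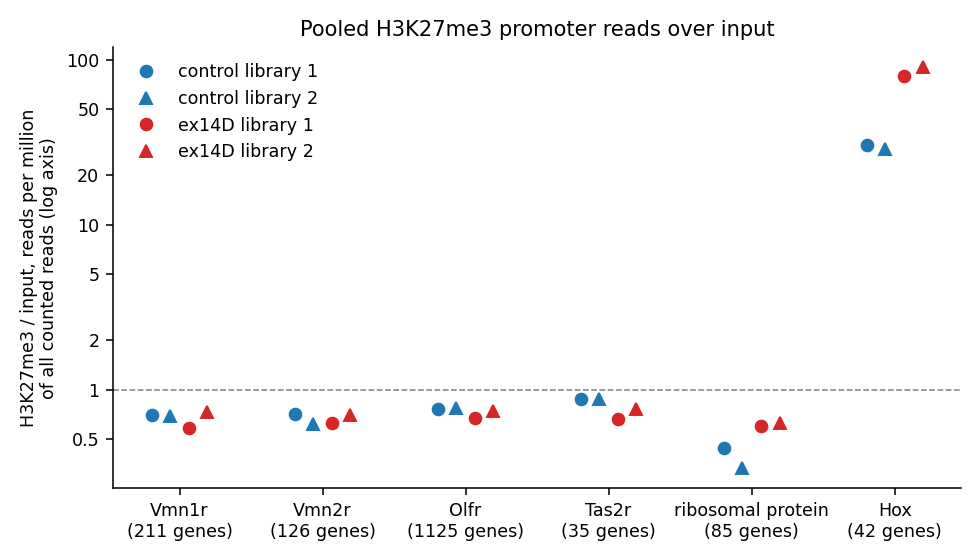
Pooled H3K27me3 reads over input for 6 gene lists (x axis), each as RPM (reads per 1000000 of all counted reads) divided by the same in the input of that genotype (y axis, log scale). Each point is 1 library. Vmn1r points lie between 0.585 and 0.732, below the dashed line of equal levels, and Hox points lie between 28.7 and 89.6.

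Gene by gene, 24 of the 148 Vmn1r genes that could be tested were lower in H3K27me3 than in input and 0 were higher (edgeR quasi-likelihood test over 4 H3K27me3 and 2 input libraries, Benjamini-Hochberg adjusted p under 0.05). Without adjustment, 45 had a p under 0.05 and all 45 were lower. Over all 20681 genes tested, 19.7% were lower and 26.2% were higher. The share of lower genes in the family, 16.2%, was near the background. None of the family was among the 26.2% that were higher, and neither was any Vmn2r or Tas2r gene. Of 1089 Olfr genes tested 7 (0.643%) were higher. The log2 fold change was below 0 in 141 of the 148, with a median of -0.66 (quartiles -0.87 and -0.39) beside -0.22 over all genes. The highest value was 0.40, for Vmn1r226. The other 63 genes did not pass the filter on low counts. These fold changes are relative to TMM scaling, with which the median gene is not at 0. With total reads on genes as the scale the median of all genes moved to -1.92 and that of the family to -2.37, and all 148 genes were then called lower. DESeq2 called 1, Vmn1r29.

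Vmn1r29 (chromosome 6, 58307297 to 58308208) had the lowest p. It had 28 and 29 reads in the inputs, 5 and 7 in control H3K27me3 and 7 and 8 in ex14D H3K27me3. Relative to all counted reads this was 1.30 and 1.33 RPM in the inputs, 0.475 and 0.446 in control and 0.366 and 0.440 in ex14D, so every H3K27me3 library was below both inputs. The log2 fold change was -1.67 ± 0.38 (SE, edgeR adjusted p 0.00024). Its promoter, printed above, has 0 CG.

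Of the other 4 genes of lowest p, 2 lie on chromosome 6 (Vmn1r22 and Vmn1r39), 1 on chromosome 17 (Vmn1r230) and 1 on chromosome 7 (Vmn1r70). Vmn1r230 had 23 and 21 input reads, 4 and 10 control H3K27me3 reads and 5 and 5 ex14D H3K27me3 reads (log2 fold change -1.45). Vmn1r22 had 23 and 20 input reads, then 5 and 6 in control and 4 and 9 in ex14D (-1.41). Vmn1r70 had 18 and 19 input reads, then 4 and 1 in control and 9 and 6 in ex14D (-1.53). All 3 had more reads, and more RPM, in each input than in any H3K27me3 library. Vmn1r39 had 30 and 26 input reads, then 9 and 10 in control and 9 and 10 in ex14D (-1.13). The 24 called genes had a median of 42.0 input reads beside 37.0 for the 148 tested, and Vmn1r29 and Vmn1r39 had the most input reads of the family after Vmn1r235 (57 and 56). The part of high input counts in these calls was not tested.

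Of the 24 called genes 23 were spread over 8 loci, and the other was Vmn1r187. The Vmn1r4 to Vmn1r31 locus on chromosome 6 and the Vmn1r66 to Vmn1r89 locus on chromosome 7 held 6 each, and the Vmn1r188 to Vmn1r223 locus on chromosome 13 held 4. The Vmn1r91 to Vmn1r183 locus held 0 of 11 tested. Among the 7 loci of at least 8 genes with a median share of unique words over 50%, pooled ratios on the scale of all counted reads ran from 0.466 (Vmn1r4 to Vmn1r31, ex14D) to 0.882 (Vmn1r224 to Vmn1r237, control). The control libraries had 0.556 and 0.554 on the Vmn1r66 to Vmn1r89 locus, where the ex14D libraries had 0.696 and 0.725. It was the only one of these 7 loci in which both ex14D libraries lay above both control libraries, whereas in 3 loci (Vmn1r4 to Vmn1r31, Vmn1r32 to Vmn1r39 and Vmn1r224 to Vmn1r237) both lay below. These differences between genotypes were not tested.

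The genes with the highest and lowest ratios were taken from the control libraries. Among the 130 genes with at least 10 reads in each input, the 5 lowest by the control H3K27me3 to input ratio, as log2((CPM + 1)/(input CPM + 1)), were Vmn1r70 (-3.49), Vmn1r71 (-3.28), Vmn1r58 (-3.27), Vmn1r222 (-3.17) and Vmn1r183 (-3.10). The 5 highest were Vmn1r226 (-1.16), Vmn1r25 (-1.16), Vmn1r26 (-1.21), Vmn1r203 (-1.25) and Vmn1r57 (-1.26). In ex14D, whose libraries did not choose them, the lowest 5 had -2.85, -1.85, -2.59, -2.68 and -2.51, and the highest 5 had -1.29, -1.88, -1.60, -2.01 and -2.59, in the same orders. The ranges of the extremes overlapped in ex14D. Vmn1r226 had 21 and 12 input reads, 14 and 20 control H3K27me3 reads and 15 and 15 ex14D H3K27me3 reads. As CPM these were 51.3 and 28.8 in the inputs, then 23.6 and 21.3 in control and lower in ex14D. As RPM they were 0.974 and 0.552 in the inputs, 1.33 and 1.28 in control H3K27me3 and 0.783 and 0.825 in ex14D H3K27me3. Whether this gene lay below or above input thus depended on the total used. It did not pass the test.

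No Vmn1r gene reached 2-fold over input in both libraries of a genotype, on the scale of (CPM + 1)/(input CPM + 1). On this scale the median log2 ratio of all genes was -1.45 and -1.51 in control and -1.92 and -1.84 in ex14D. With all counted reads as the total, 0 Vmn1r genes reached 2-fold as well. Of the 211 genes, 151 had at least 5 reads in each input, and 0 of these 151 reached 2-fold in either genotype. Of all 20660 genes with that many input reads, 11.9% did in control and 9.69% did in ex14D. The other 60 genes had too few input reads for the ratio to be read. Among the other receptor families, 0 of 126 Vmn2r and 0 of 35 Tas2r genes reached 2-fold in either genotype. Of 1125 Olfr genes 1 did in control and 0 in ex14D. Of the Hox genes 41 of 42 in control and 42 of 42 in ex14D did. In single libraries, Vmn1r170, which is among the 60, passed in control library 2 with 3 reads against 0 in the input, and Vmn1r47, also among them, passed in ex14D library 2 with 5 against 0. Both are at counts too low to be read.

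Peaks gave the same picture. No Vmn1r gene had an H3K27me3 broad peak over the 1 kb around its start in both libraries of a genotype, where 18.0% of all placed genes did in control and 16.5% did in ex14D. In single libraries the count was also 0 of 209 in each of the 4. The 209 include the 36 genes with 0 reads in every library, on which the absence of a peak says nothing. The median distance from a Vmn1r window to the nearest peak was 342 to 499 kb, compared with 23.9 to 62.1 kb over all genes. Other receptor families were alike, with 300 to 451 kb for Olfr, 518 to 606 kb for Vmn2r and 981 to 1740 kb for Tas2r. In single libraries 0% of Vmn2r and Tas2r windows and 0.179% to 0.627% of Olfr windows had a peak. The nearest approaches were to Vmn1r1 on chromosome 1 (1.97 to 2.81 kb in 3 libraries), to Vmn1r87 on chromosome 7 (6.77 kb in control library 2) and to Vmn1r53 on chromosome 6 (6.86 to 7.74 kb in all 4). Vmn1r1 had 24 and 17 input reads, 13 and 11 in control H3K27me3 and 7 and 12 in ex14D H3K27me3, and did not pass the test against input (edgeR adjusted p 0.304). The 12 well-covered genes with a peak within 50 kb had ratios of 0.526 to 0.834 on the scale of all counted reads, and the 138 without one had 0.593 to 0.728.

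The ratio followed no clear order with the CG content of the promoter. Genes with 0 CG had pooled ratios of 0.712 and 0.765 in control and 0.543 and 0.697 in ex14D (43 genes). Genes with 3 or more had 0.867 and 0.760 in control and 0.585 and 0.680 in ex14D (12 genes). The highest value of any class was 0.933, for genes with 2 CG in ex14D library 2. The classes of fewest and most CG overlapped in both genotypes, so no order can be read from them.

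Between the genotypes no Vmn1r gene was called different in H3K27me3. The test had 78 genes of the family after the filter on low counts, and 0 were lower and 0 higher in ex14D (edgeR quasi-likelihood test, 2 against 2 libraries). Over all 14883 genes tested 3.19% were lower and 5.85% were higher. Without adjustment 3 of the 78 had a p under 0.05, of which 2 were lower and 1 higher. DESeq2 also called 0. The median log2 fold change of the family was -0.01 (quartiles -0.36 and 0.41) and that of all genes -0.02. The standard error of a Vmn1r gene had a median of 0.52, so a 2-fold change in 1 gene was less than 2 such errors. The family's median was -0.39 without ex14D library 2. The Hox genes, tested in the same fit, were higher in ex14D in 38 of 42 cases, with a median of 1.58. That rise is relative to the other genes of each library and gives no amount of H3K27me3 in the cells.

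Single genes of lowest p did not pass the adjusted threshold, and their calls depended on the scaling. Vmn1r205 (chromosome 13, 22591980 to 22592930) had the lowest p, with 13 and 17 reads in control and 7 and 8 in ex14D, and 24 and 16 in the inputs. The genotypes did not overlap, but the log2 difference of -1.36 ± 0.48 (SE) did not pass (edgeR adjusted p 0.0835). With all counted reads as library size it did pass (adjusted p 0.0269), and relative to reads on genes so did Vmn1r205 (adjusted p 0.00929), Vmn1r231 and Vmn1r31. With that scale the median of all genes moved to -0.47 and that of the family to -0.45. Vmn1r40 (chromosome 6) went the other way, with 6 and 4 reads in control and 16 and 16 in ex14D, a log2 difference of 1.28 ± 0.55 (SE, edgeR adjusted p 0.171). These 4 genes were named after their values were seen.

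EZH2 was counted over the whole gene rather than the promoter. Over 13874 placed genes with EZH2 reads the count followed gene length (Spearman rho 0.902, across genes), so levels are given per kb. Of the 211 genes 158 had EZH2 reads and 53 (25.1%) had 0 in all 4 libraries, 49 of these in the Vmn1r91 to Vmn1r183 locus. Of all 24500 genes 43.2% had 0 in all 4. Only 2 of the 53 had at least 5 reads in each input. These were Vmn1r187 and Vmn1r90. Vmn1r90 lies inside the pseudogene Nlrp5-ps (chromosome 7, 14530654 to 14623066), and reads that fell on more than 1 counted gene, 21.2% to 21.9% of the EZH2 libraries, were assigned to none.

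Vmn1r genes with reads had median EZH2 levels of 11.1 and 14.7 reads per kb in control and 12.1 and 14.3 in ex14D. Per 10000000 counted reads this was 3.54 and 3.53 in control, then 3.90 and 3.81 in ex14D. All genes with reads had medians of 4.28 and 4.27 in control, then 4.42 and 4.50 in ex14D. On the 18 of 42 Hox genes with counted reads the medians were 128 and 131 in control, then 101 and 77.2 in ex14D. The EZH2 files have no matching input count over genes, so enrichment over input was not computed. After Vmn1r235, the genes with the most reads per kb were Vmn1r85 (22.7), Vmn1r78 (20.7), Vmn1r88 (19.7) and Vmn1r39 (19.6), as means of 4 libraries. Vmn1r85 had 16 and 21 reads in control and 19 and 28 in ex14D. Vmn1r78 had 16 and 27 in control and 12 and 23 in ex14D. These raw reads overlapped between the genotypes for both genes. Relative to all counted reads, both ex14D values of Vmn1r85 lay above both control values, and those of Vmn1r78 still overlapped.

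No Vmn1r gene was called different in EZH2 between the genotypes. The test had 123 genes of the family, and 0 were lower and 0 higher in ex14D, where 7.88% of 13401 genes were lower and 0.0522% were higher. Without adjustment 2 had a p under 0.05, both higher, and DESeq2 called 0. The family had a median log2 fold change of 0.07 (quartiles -0.14 and 0.35) beside 0.02 over all genes, and its standard errors had a median of 0.37. Vmn1r19 had the lowest p, with 7 and 8 reads in control and 14 and 18 in ex14D (log2 difference 1.14 ± 0.36 SE, edgeR adjusted p 0.144). Only 18 of the 42 Hox genes had counted EZH2 reads and were tested. Of these 15 were lower in ex14D, with a median of -0.64 over the 18. All 42 Hox windows had an EZH2 domain in each EZH2 library, so a count of 0 does not show that EZH2 was absent.

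The pooled EZH2 reads of the family were slightly higher in ex14D. They came to 68.17 (65.3 to 71.12) and 68.57 (66.08 to 71.13) RPM in control and 73.42 (70.43 to 76.5) and 74.28 (71.54 to 77.09) in ex14D. The 2 ex14D values lay above the 2 control values, but the 95% Poisson intervals of some pairs overlapped. Olfr genes moved the same way, from 348.7 and 348.5 to 365.1 and 374.1, as did Vmn2r genes, from 663.5 and 659.4 to 699.1 and 721.2. Ribosomal protein genes, which are not receptors, went from 68.17 and 69.77 to 70.68 and 71.45. Tas2r genes went from 12.41 and 12.79 to 13.05 and 12.87. In both of these lists the 95% Poisson intervals of control and ex14D overlapped in every pair. Hox genes fell, from 1195 and 1196 to 909.7 and 668.0. These pooled differences were not tested.

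**Figure D5:**
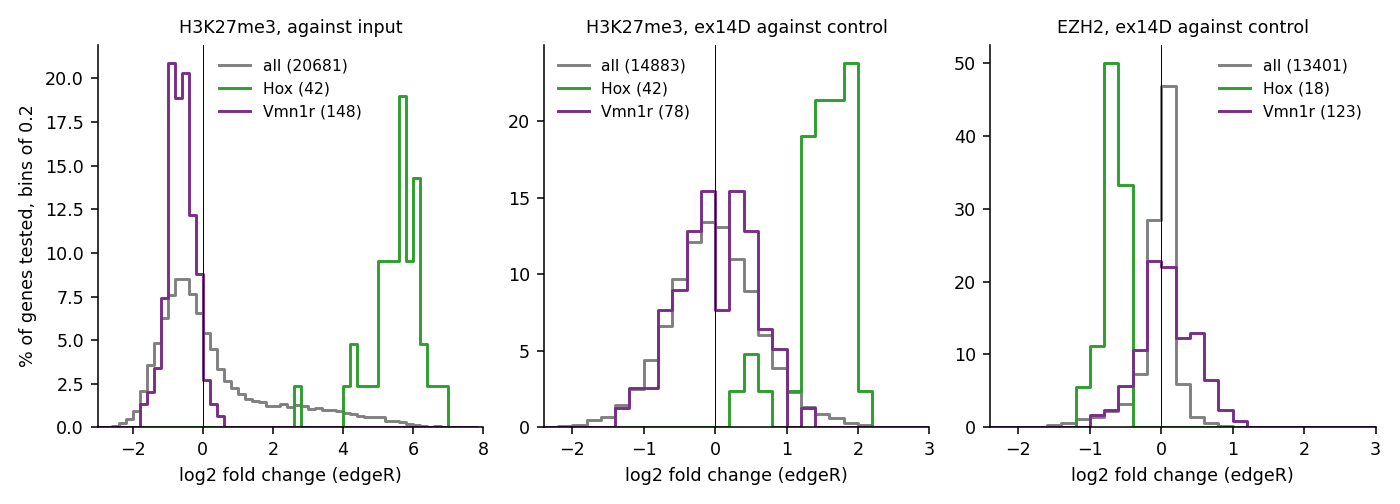
Share of genes tested, in percent (y axis, bins of 0.2), by log2 fold change (x axis) in the edgeR fits of H3K27me3 against input, H3K27me3 in ex14D against control and EZH2 in ex14D against control. Numbers in the legends are genes tested. Vmn1r genes have medians of -0.66, -0.01 and 0.07, and Hox genes have medians of 5.68, 1.58 and -0.64.

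Vmn1r235 (chromosome 17, 21260427 to 21262863) stood apart in every kind of library. It had 35 and 45 reads in the inputs, 18 and 24 in control H3K27me3 and 20 and 32 in ex14D H3K27me3. Its EZH2 reads numbered 70 and 73 in control and 73 and 102 in ex14D. Relative to the median of the 137 genes with mostly unique sequence, its input was 2.11 times, its H3K27me3 2.54 times and its EZH2 per kb 2.33 times as high. The increase was thus similar with and without antibody, and H3K27me3 did not pass the test against input (log2 fold change -0.36, edgeR adjusted p 0.371). It was also the only family member with an EZH2 domain over its window, from 21253001 to 21282000 in control library 2 and from 21253001 to 21283000 in ex14D library 2. Neither library 1 had it. The domain ends short of Vmn1r236, which had 23 and 11 reads in the inputs, 15 and 20 EZH2 reads in control and 16 and 18 in ex14D. In both libraries of a genotype 0 of 209 Vmn1r windows had a domain, where 16.8% of all placed genes did in either genotype. These 209 again include the 36 genes with 0 reads in every library. In single libraries 0 of 124 Vmn2r, 0 of 35 Tas2r and 1 or 2 of 1116 Olfr windows had a domain.

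Some other genes of the vomeronasal organ had more H3K27me3 than input. The list used holds genes of both apical and basal neurons. Of 25 measured genes of a vomeronasal list of signalling, transcription and guidance genes, other vomeronasal receptors and MHC molecules, 10 (40.0%) were higher in H3K27me3 than in input and 0 lower, beside 26.2% higher and 19.7% lower over all genes tested. The 10 were Meis2, Tfap2e, Bcl11b and Emx2 (transcription factors), Robo2 and Nrp2 (axon guidance receptors), Gnao1 and Gng8 (G protein subunits), and Ano1 and Ano2 (chloride channels). Emx2 had a log2 fold change of 5.50 ± 0.61 (SE) and Tfap2e, a factor of basal vomeronasal neurons, 4.69 ± 0.32 (SE). Gnai2 (0.56) and Trpc2 (-0.72), through which Vmn1r neurons signal, did not pass, and neither did Omp (0.12). The formyl peptide receptors, which like Vmn1r are vomeronasal receptors, had -0.71 (Fpr-rs3), -0.81 (Fpr-rs4), -0.25 (Fpr-rs6) and -0.49 (Fpr3), and none passed. The 8 H2-M genes, MHC molecules of basal vomeronasal neurons, had -0.67 to 0.25, and none passed.

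Between the genotypes, 4 of 20 tested genes of this list were higher in H3K27me3 in ex14D and 0 lower, where 5.85% of all genes tested were higher. Counts are shares of each library, so higher and lower are relative to the other genes of that library, here and for the Hox genes, and the total H3K27me3 of the cells cannot be read from them. Tfap2e had 301 and 329 CPM in control and 385 and 366 in ex14D (log2 fold change 0.70). Meis2 had 350 and 272 in control and 557 and 579 in ex14D (1.32). Nrp2 (0.78) and Emx2 (1.69) also rose on this relative scale. EZH2 was lower in ex14D on 4 of 11 tested (36.4%) and higher on 0, where 7.88% of all genes tested were lower. They were Tfap2e (-1.09), Nrp2 (-0.48), Meis2 (-0.38) and Gnai2 (-0.31). The receptors themselves had 0 calls in either direction in both comparisons. Their counts were far lower, with 13 and 17 control H3K27me3 reads on Vmn1r205 for example, so changes of the size seen on Nrp2 or Tfap2e may not have been detectable at this depth. The difference between the lists was not tested.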

How the data were processed

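ChIP-seq libraries of E14 ES cells were grouped by the genotype and antibody of their labels. The authors aligned reads to mm10 with Bowtie2 after Trimmomatic, called MACS2 broad peaks and hiddenDomains domains for each library, and deposited HTSeq read counts per gene without normalization (tool versions are not given in the sources used here). The peak ratio (fold enrichment) and −log10 q are those of MACS2, as deposited. The H3K27me3 domain files ran past the ends of 8 GRCm38 chromosomes and were not used. The methods give counting windows of 1 kb around the start, but input counts fell when another start lay within 2000 bp and were level beyond it, so 36-base words were counted over 2 kb instead of the planned 1 kb. Rows for reads on no gene stayed out of CPM and of the tests.

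Counts were compared with edgeR 4.0.16 in R 4.3.3 (TMM, filterByExpr, quasi-likelihood test, Benjamini-Hochberg adjustment over all genes tested, threshold 0.05), with genotype as a covariate against input. Standard errors are |log2 fold change| over the square root of F. DESeq2 1.42.0 was an alternative. Replicate libraries of a group differed by more than sampling noise (chi-square per degree of freedom 1.48 to 3.95). Nothing in the labels says that they came from separate cultures, so p-values measure only the spread between these libraries. Before use, the edgeR steps were tested on simulated data. Genes named were the 5 of lowest p in each direction of each fit among those past the threshold, the 5 highest and 5 lowest H3K27me3 to input ratios in control among genes with at least 10 reads in each input, genes with a peak or domain in both libraries of a genotype (0 were found), the 5 with the most EZH2 reads per kb and the vomeronasal list genes past the threshold. Other genes were named after their values were seen. Kinase genes whose symbols begin with Rps6k were left out of the ribosomal protein list. The family and the lists were chosen with earlier results of these data known. Python 3.11.15 and scipy 1.17.1 were used.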

Additional observations from a re-analysis of the deposited data

How the results depend on the processing

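For H3K27me3 against input, genes called lower numbered 24 and became 148 with reads on genes as the library size (median -2.37) and 1 with DESeq2. Leaving out 1 library gave 15 to 33, with the lowest count without ex14D library 1. For H3K27me3 between genotypes, 3 genes were lower with reads on genes as library size (median -0.45) and 1 with all counted reads. Leaving out 1 library gave medians of -0.39 to 0.18. The cause of these shifts was not tested. For EZH2 between genotypes, the median was 0.12 with reads on genes as library size and 0.11 with all counted reads, and 0.036 to 0.141 when 1 library was left out. Vmn1r5 alone was then called lower (1 gene, without ex14D library 1). The pooled log2 ratio to input became -0.52 in control and -0.61 in ex14D with all counted reads. Leaving out library 1 of a genotype gave 1 gene over 2-fold in control and 1 in ex14D, and 1 with an EZH2 domain (Vmn1r235) in each. Counts of peaks were 0 under every setting tried.

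With the replicate number as a block, 0 genes of the family were called in either comparison. Across genes, the deviations of same-numbered libraries had an r of -0.104 for H3K27me3 and -0.0317 for EZH2. With 2 libraries per group this cannot show whether the numbers mark a pairing, which is not known. With crossed numbers, added after seeing the data, 1 gene was lower in H3K27me3 and 0 in EZH2, and the 2 kb window, also added then, changed no count.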
